A study of Mus musculus with 16 samples.

Results

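The genes of the heterotrimeric G proteins and of their RGS regulators were followed in mouse striatum. They were taken by symbol: all rows named Rgs, Gnb or Gng with a number and 11 named G alpha genes, leaving out 5 genes, Rgs4, Rgs9, Rgs12, Rgs14 and Gng7. This gave 42 members among the 24421 genes of the count tables: 11 alpha subunits, 5 beta subunits, 9 gamma subunits and 17 RGS genes. RNA came from 16 mice at 13 months of age. BACHD mice carry a BAC transgene of mutant human huntingtin and serve as a model of Huntington disease. The 4 groups of 4 mice were BACHD mice given a Foxp2 virus (BACHD+Foxp2), BACHD mice given a control virus (BACHD+Con), control mice given the Foxp2 virus (Con+Foxp2) and control mice given the control virus (Con+Con), so every mouse had received a virus. The promoter and serotype of the virus, the species of its Foxp2 sequence and the time after injection were not stated in the labels used here. Foxp2 is a forkhead transcription factor of striatal projection neurons, and the design asks what more of it does in each genotype.

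A heterotrimeric G protein couples a cell-surface receptor to its effectors. The receptor makes the alpha subunit exchange GDP for GTP, after which alpha and the beta-gamma pair act on adenylyl cyclases, phospholipase C beta and potassium channels. RGS proteins speed up GTP hydrolysis by alpha and so shorten the signal. In the striatum these steps carry the dopamine, adenosine and acetylcholine signals that projection neurons and interneurons receive.

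Libraries held 2660395 to 3669748 reads in genes, so that 3 reads, the floor used here for genes at 0, stood for 0.819 to 1.16 CPM (reads scaled to a common library total). Foxp2 averaged 1595 ± 288 CPM in BACHD+Foxp2 mice against 119 ± 28.6 CPM in BACHD+Con mice, and 4015 ± 431 CPM in Con+Foxp2 mice against 118 ± 26.7 CPM in Con+Con mice (SD, n = 4 each), as the virus labels say in all 16 libraries. All 14 projection neuron markers had reads, with a summed level of 4303 to 8519 CPM. Libraries stood apart in markers of neighbouring tissue. The sum of 12 markers of cortical excitatory neurons ranged from 321 to 1961 CPM, and its 4 lowest libraries, BACHD+Con mice 3 and 2 and Con+Con mice 4 and 2, had projection neuron sums of 6823 to 8519 CPM, against 4303 to 6409.6 CPM in the other 12. Choroid plexus and ependyma markers summed to 125 to 10739.7 CPM. In such bulk tissue fewer cells of a type and less RNA per cell cannot be told apart.

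Members of every class were present, and their levels, given per kilobase of exon to allow for gene length, spanned a wide range. The length is the union of all annotated exons, which can exceed that of the expressed transcript, so the order of genes depends on it. In CPM without length, means of 16 mice were 594 for Gnas, 257 for Gnai2, 87.8 for Gng2 and 84.3 for Gng3. They were 155 for Rgs8, 129 for Rgs17, 93.4 for Rgs2 and 30.1 for Rgs10, so these orders differ from those per kilobase. Of the alpha subunits Gnao1 (Go alpha, the most abundant G alpha of brain) was highest at 80.7 ± 5.13 CPM per kb (mean and SD of 16 mice), followed by Gnai2 at 67.95 ± 6.46 CPM per kb and Gnas (Gs alpha, which stimulates adenylyl cyclase) at 53.1 ± 9.54 CPM per kb. Gnai1, which like Gnai2 and Gnai3 inhibits adenylyl cyclase, stood at 38.2 ± 6.26 CPM per kb and Gnai3 at 9.97 ± 3.16 CPM per kb. Gnal, the olfactory-type stimulatory alpha subunit that serves dopamine D1 and adenosine A2a receptors in striatum, is no member and stood at 62.02 ± 14.01 CPM per kb, within the spread of Gnas. Gnaq and Gna11, which act on phospholipase C beta, stood at 29.7 ± 3.38 and 21.9 ± 2.67 CPM per kb, Gnaz, a relative of the inhibitory alphas, at 24.1 ± 4.50 CPM per kb, and Gna12 and Gna13, which signal to the actin cytoskeleton, at 15.4 ± 4.20 and 12.4 ± 1.62 CPM per kb. Gna14, another Gq-type alpha, was near the floor at 0.636 ± 0.504 CPM per kb.

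By mean level per kilobase, Gnb1, Gng3 and Rgs2 led the beta, gamma and RGS members. Gnb1 was the highest of all members at 119 ± 11.5 CPM per kb and made up 56.8% ± 4.41 of the summed beta level per length (mean and SD of 16 mice). Gnb5, the atypical beta subunit that pairs with R7 RGS proteins instead of gamma subunits, followed at 48.3 ± 8.10 CPM per kb and Gnb2 at 40.3 ± 6.05 CPM per kb, while Gnb4 was at 2.00 ± 0.560 CPM per kb. Among gamma members Gng3, a neuronal gamma subunit, held 39.1% ± 5.86 of the summed level, at 51.3 ± 12.97 CPM per kb, and Gng2 was next at 20.01 ± 7.72 CPM per kb. Gng7, the gamma subunit known to pair with Gnal in striatum, is outside the members and outside this sum. Among RGS members Rgs2, an R4 protein with a preference for Gq, had the highest mean at 25.7 ± 7.24 CPM per kb or 20.1% ± 3.74 of the sum. Rgs4, Rgs9, Rgs12 and Rgs14 are outside the members and outside this sum, so it gives no rank among all RGS genes. Rgs10 (R12 family, known from microglia) followed at 17.6 ± 4.11, Rgs8 (R4) at 16.1 ± 3.66, Rgs17 (RZ family, active on Gz) at 15.5 ± 1.63 and Rgs7 (R7 family) at 12.5 ± 1.61 CPM per kb. The means of Rgs10, Rgs8 and Rgs17 differed by less than the SD of Rgs10.

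**Figure D1:**
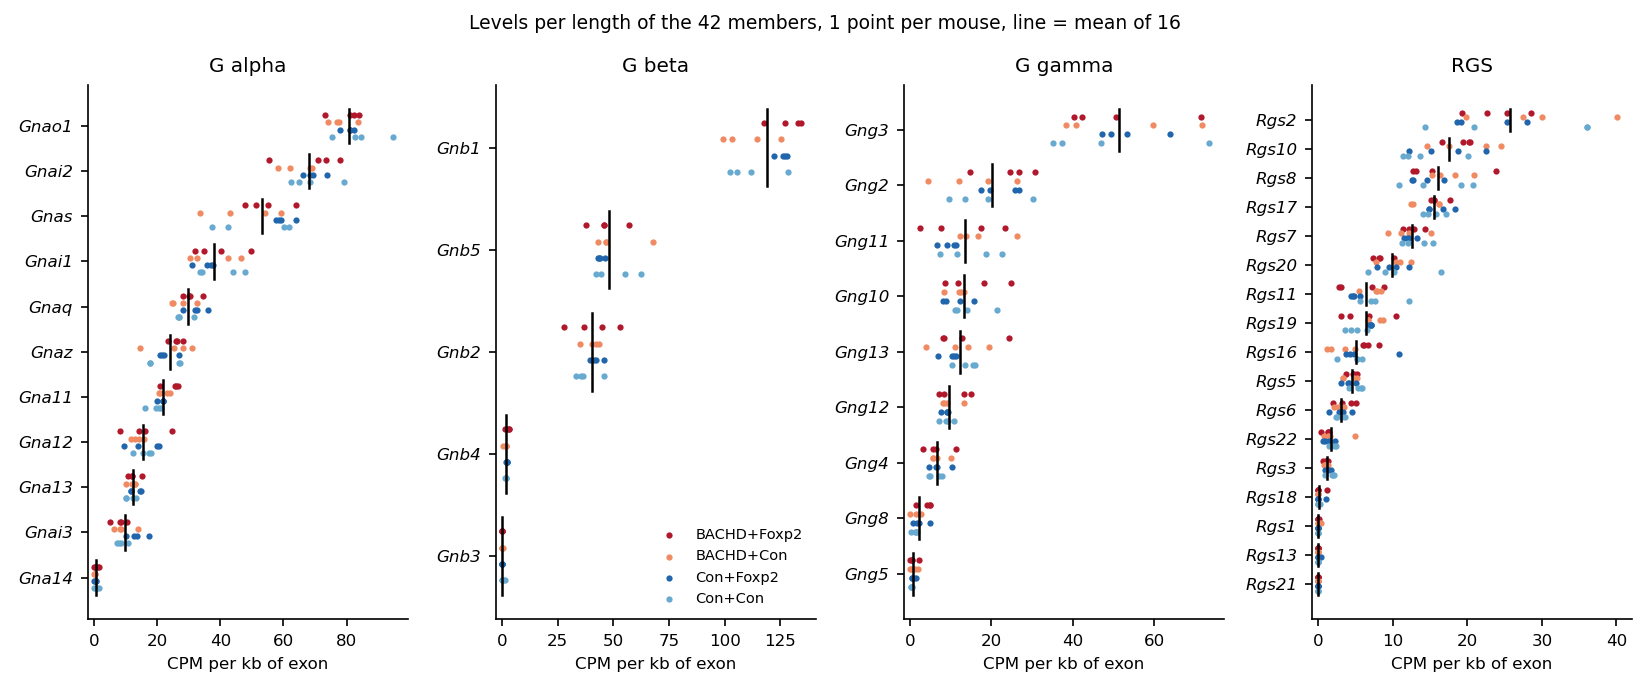
Level of each of the 42 members per kilobase of exon (horizontal axis, CPM per kb), 1 point per mouse coloured by group, with the mean of 16 mice as a line; each panel has its own scale. Gnao1, Gnb1, Gng3 and Rgs2 led their classes, with means of 80.7, 119, 51.3 and 25.7 CPM per kb.

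36 of the 42 members passed the filter on low counts and were tested. Of the other 6, Rgs21, known from taste cells, had 0 reads in all 16 libraries, which allows up to 1.16 CPM in the shallowest library. Rgs13, known from B cells, had 2 reads in 1 library, Rgs1, also of lymphocytes, 16 reads in 6 libraries, and Rgs18, a regulator of platelets, 17 reads in 3. Gnb3, the beta subunit of cone photoreceptors, had 23 reads in 7 libraries and Gng5 95 reads in 14. Gng5 has a processed pseudogene, Gng5-ps, so its reads may be split or dropped in counting. The same limit holds for Gnb1 and Gng2, which have processed pseudogenes of their own. Whether strand was used in counting is not stated in the labels or notes used here. Exons of Gng13 overlap Chtf18 on the opposite strand over 51.6% of their length, those of Gng3 overlap Bscl2 over 24.2% and those of Gng10 overlap Gm20503 on the same strand over 71.99%. On the opposite strand, Gm48283 covers 20.4% of the Gng2 exons, Amz1 13.3% of the Gna12 exons, Gm20721 13.1% of the Gnas exons and Gm28513 10.1% of the Rgs16 exons. Of these partners Chtf18, Bscl2 and Amz1 are among the counted genes, while Gm20503, Gm48283, Gm20721 and Gm28513 are not. The reads of these members are uncertain. Other overlaps covered 0.730% to 8.83% of a member's exons.

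Members differed in how far mice of the same group lay apart. Gnao1 was the steadiest tested member, at 808 to 1045 CPM over the 16 mice with a within-group SD of 0.09 on the log2(CPM + 0.5) scale, and Gnb1 followed at 424 to 573 CPM with an SD of 0.11. Gng2 ranged from 19.1 to 135 CPM, a 7.06-fold span, with a within-group SD of 0.71, although its median of 85.3 CPM is far above the floor. Among members of lower level, Rgs16 spanned 9.50-fold, Gng11 10.5-fold and Rgs22 12.9-fold between the lowest and the highest mouse. Gna14, near the floor, spanned 18.4-fold.

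Gnao1 was at 808, 894, 927 and 908 CPM in BACHD+Foxp2 mice and 849, 859, 819.7 and 925 CPM in BACHD+Con mice. In control mice it was at 909.6, 896, 861 and 897 CPM with the Foxp2 virus and 833, 1045, 913 and 934 CPM with the control virus. For this Go alpha the lowest mouse was BACHD+Foxp2 mouse 1 and the highest Con+Con mouse 2, and all groups overlapped. Gnai2 was at 268, 209, 277 and 294 CPM in BACHD+Foxp2 mice and 219.6, 261, 259 and 235 CPM in BACHD+Con mice. The Con+Foxp2 mice had 251, 278, 258 and 262 CPM and the Con+Con mice 245, 258, 236 and 299 CPM. BACHD+Foxp2 mouse 2 was lowest and Con+Con mouse 4 highest for this inhibitory alpha, and here too the groups overlapped. Gna12 was at 48.6, 28.5, 55.4 and 84.8 CPM in BACHD+Foxp2 mice and 49.1, 39.97, 43.99 and 54.3 CPM in BACHD+Con mice. Values in Con+Foxp2 mice were 47.7, 70.7, 33.1 and 68.3 CPM, against 59.6, 42.8, 53.7 and 61.4 CPM in Con+Con mice. Both the lowest and the highest Gna12 mouse, mice 2 and 4, were in the BACHD+Foxp2 group. Gna13 was at 76.8, 69.7, 77.8 and 97.6 CPM in BACHD+Foxp2 mice and 64.6, 83.9, 84.3 and 78.2 CPM in BACHD+Con mice. Con+Foxp2 mice had 76.3, 95.6, 75.6 and 94.2 CPM and Con+Con mice 79.1, 85.9, 64.9 and 66.2 CPM. BACHD+Con mouse 1 was lowest and BACHD+Foxp2 mouse 4 highest for this partner of Gna12 in its class, and each group's range overlapped the others.

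Rgs17 was at 129, 147, 126 and 129 CPM in BACHD+Foxp2 mice and 135, 105, 103 and 135 CPM in BACHD+Con mice. Among control mice, values were 124, 123, 152 and 139.5 CPM with the Foxp2 virus and 131, 143, 122 and 116 CPM with the control virus. BACHD+Con mice 3 and 2 were the lowest for this RZ protein, and the other mice of that group lay among the rest. Rgs20 was at 34.4, 42.9, 31.3 and 35.1 CPM in BACHD+Foxp2 mice and 32.99, 44.3, 53.1 and 46.6 CPM in BACHD+Con mice. In control mice it was at 44.1, 33.7, 51.7 and 40.1 CPM with the Foxp2 virus and 43.4, 69.8, 28.6 and 37.9 CPM with the control virus. Rgs20, also of the RZ family, had both its lowest and its highest value in Con+Con mice, mice 3 and 2. Rgs7 was at 73.5, 86.1, 77.8 and 68.6 CPM in BACHD+Foxp2 mice and 91.1, 56.2, 67.2 and 73.6 CPM in BACHD+Con mice. The Con+Foxp2 mice had 79.9, 71.7, 69.3 and 73.4 CPM and the Con+Con mice 67.9, 92.7, 85.8 and 72.5 CPM. BACHD+Con mouse 2 was lowest and Con+Con mouse 2 highest for Rgs7.

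With the Foxp2 virus in control mice (Con+Foxp2 against Con+Con), no G protein or RGS member passed the test. edgeR called 0 of the 36 tested members at an adjusted p under 0.05, and DESeq2 and limma voom also called 0, where edgeR called 0.229% of all 13563 tested genes (31 genes). Unadjusted p-values were under 0.05 for 2 members, 5.56% of the 36 against 7.04% of all genes. The median log2 fold change of the members was 0.02, against -0.00 for all genes tested. Gnai3 was at 41.5, 33.4, 56.7 and 45.05 CPM in Con+Foxp2 mice, against 35.7, 26.4, 24.1 and 28.3 CPM in Con+Con mice. Of the Con+Foxp2 mice 3 were above all Con+Con mice and the lowest was below the highest Con+Con mouse, so the groups overlapped. The log2 fold change was 0.62 ± 0.24 (SE) with an adjusted p of 0.543 by edgeR's quasi-likelihood test. Rgs11, an R7 protein that binds Gnb5, had the second-lowest p. It was at 20.3, 19.96, 23.5 and 18.3 CPM in Con+Foxp2 mice, against 30.1, 31.9, 23.5 and 51.3 CPM in Con+Con mice. The 2 groups touched at 1 mouse each, and the log2 fold change was -0.73 ± 0.31 (adjusted p 0.612, edgeR).

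Rgs19 was at 15.1, 15.7, 15.9 and 15.8 CPM in Con+Foxp2 mice, against 9.74, 11.6, 8.04 and 14.5 CPM in Con+Con mice. This RZ protein was the 1 member whose Con+Foxp2 and Con+Con mice did not overlap, a pattern that 5.01% of all genes showed in this comparison in either direction; its log2 fold change was 0.52 ± 0.32 (adjusted p 0.827, edgeR). Gnaq was at 203, 175, 224 and 197 CPM in Con+Foxp2 mice, against 167, 167, 197 and 164 CPM in Con+Con mice. The groups overlapped through 1 Con+Con mouse, and the log2 fold change was 0.20 ± 0.12 (adjusted p 0.803, edgeR). In BACHD mice this Gq alpha was at 174, 213, 188 and 187 CPM with the Foxp2 virus, against 174, 153, 155 and 203 CPM with the control virus, and the groups overlapped.

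In BACHD mice the Foxp2 virus (BACHD+Foxp2 against BACHD+Con) likewise left 0 of 36 members called by edgeR, DESeq2 or limma voom, where edgeR called 0.243% of all genes. Unadjusted p-values were under 0.05 for 3 members, 8.33% against 7.73% of all genes, and the median log2 fold change of the members was 0.08 against 0.00 for all genes. Rgs16 was at 19.02, 15.7, 14.1 and 14.4 CPM in BACHD+Foxp2 mice, against 8.59, 3.96, 2.69 and 11.6 CPM in BACHD+Con mice. Every BACHD+Foxp2 mouse was above every BACHD+Con mouse for this R4 regulator of Gi and Gq, while in 4.14% of all genes these groups did not overlap in either direction. The log2 fold change was 1.24 ± 0.42, the adjusted p 0.392 by edgeR, and it was called under none of 25 alternatives (lowest adjusted p 0.204).

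Gnb4 was at 20.1, 28.8, 37.8 and 38.9 CPM in BACHD+Foxp2 mice, against 25.1, 8.92, 22.8 and 23.9 CPM in BACHD+Con mice. 1 BACHD+Foxp2 mouse lay among the BACHD+Con mice, and BACHD+Con mouse 2 was far below the rest of its group; the log2 fold change was 0.64 ± 0.27 (adjusted p 0.571, edgeR), or 0.39 without that mouse. Gnb1 was at 543, 568, 573 and 502 CPM in BACHD+Foxp2 mice, against 535, 441, 424 and 488 CPM in BACHD+Con mice. The groups overlapped in 1 mouse each, with a log2 fold change of 0.21 ± 0.10 (adjusted p 0.615, edgeR). Rgs22 was at 2.19, 7.20, 7.23 and 7.97 CPM in BACHD+Foxp2 mice, against 7.90, 28.4, 4.70 and 9.25 CPM in BACHD+Con mice. At these levels 1 CPM is about 3 reads, the groups overlapped, and the log2 fold change of this little-studied RGS gene was -1.02 ± 0.50 (adjusted p 0.651, edgeR). BACHD+Con mouse 2 was far above the rest of its group, and without it the log2 fold change was -0.23. Rgs22 was at 5.47, 13.1, 8.62 and 3.82 CPM in Con+Foxp2 mice, against 13.6, 12.5, 10.6 and 8.56 CPM in Con+Con mice. These groups also overlapped.

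**Figure D2:**
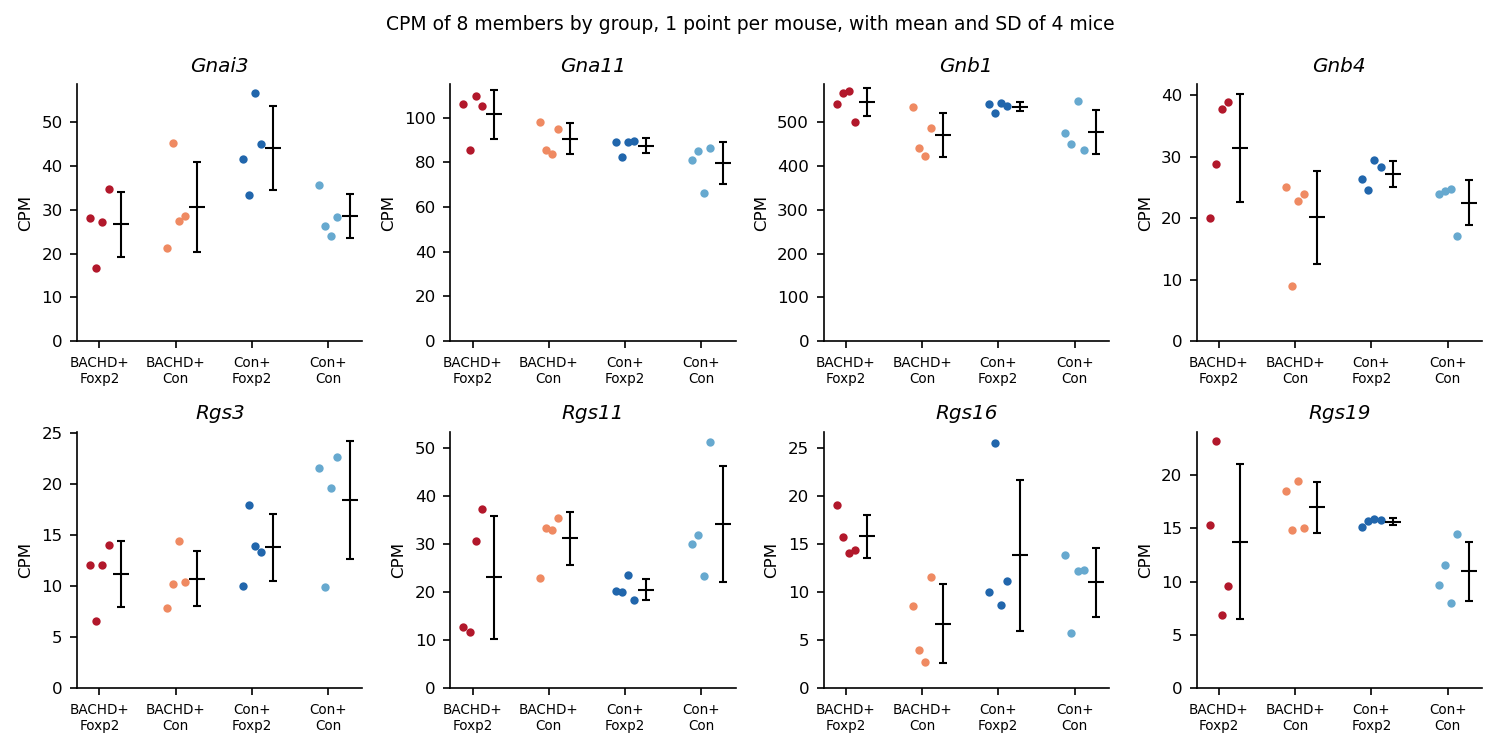
CPM (vertical axis, from 0) of 8 members in the 4 groups, 1 point per mouse, with the mean and SD of 4 mice beside the points. The 4 BACHD+Foxp2 mice lie above the 4 BACHD+Con mice for Rgs16 (19.02, 15.7, 14.1 and 14.4 against 8.59, 3.96, 2.69 and 11.6 CPM), and Rgs19 is low in Con+Con mice (9.74, 11.6, 8.04 and 14.5 CPM), below all Con+Foxp2 and all BACHD+Con mice.

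Taking both genotypes together (8 mice with the Foxp2 virus against 8 with the control virus), the comparison with the narrowest intervals for the virus, edgeR again called 0 of 36 members, as did DESeq2 and limma voom, while it called 1.05% of all genes (143 genes). Unadjusted p-values were under 0.05 for 6 members, 16.7% of the 36 against 10.8% of all genes: Gnb1, Rgs11, Rgs16, Gnb4, Rgs22 and Gnaq. The fold changes of 23 members were positive and of 13 negative, with a median log2 fold change of 0.07 against -0.00 for all genes. Gnb1 was at 543, 568, 573 and 502 CPM in BACHD+Foxp2 mice and 535, 441, 424 and 488 CPM in BACHD+Con mice. Values in Con+Foxp2 mice were 542, 521, 546 and 538 CPM, against 477, 451, 548 and 437 CPM in Con+Con mice. Its log2 fold change was 0.19 ± 0.07 with an adjusted p of 0.270. All 8 mice with the Foxp2 virus were above 6 of the 8 mice with the control virus, and the overlap came from BACHD+Con mouse 1 and Con+Con mouse 3. The 4 lowest Gnb1 values were those of BACHD+Con mice 2 and 3 and Con+Con mice 2 and 4, the 4 libraries lowest in cortical markers. Over 24 alternatives the log2 fold change of Gnb1 was 0.11 to 0.23, and it was called under none.

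Rgs11 was at 12.8, 11.8, 30.6 and 37.3 CPM in BACHD+Foxp2 mice, against 23.03, 33.4, 32.9 and 35.5 CPM in BACHD+Con mice. BACHD+Foxp2 mice 1 and 2 were below all BACHD+Con mice, mouse 3 lay among them and mouse 4 just above; the log2 fold change over both genotypes was -0.58 ± 0.22 (adjusted p 0.290, edgeR). Rgs16 was at 9.98, 25.5, 8.62 and 11.2 CPM in Con+Foxp2 mice, against 13.9, 5.79, 12.2 and 12.3 CPM in Con+Con mice. Con+Foxp2 mouse 2 was far above the rest of its group, whose other 3 mice lay within the Con+Con range; the log2 fold change over both genotypes was 0.78 ± 0.29 (adjusted p 0.292, edgeR). Gnb4 was at 26.4, 24.5, 29.5 and 28.4 CPM in Con+Foxp2 mice, against 23.9, 24.5, 24.8 and 17.1 CPM in Con+Con mice. Con+Con mouse 4 was below the rest of its group, and the groups overlapped. The log2 fold change over both genotypes was 0.46 ± 0.19 for Gnb4 (adjusted p 0.367), 0.18 ± 0.08 for Gnaq (adjusted p 0.434) and -0.79 ± 0.35 for Rgs22 (adjusted p 0.405, all edgeR). By class, all 3 Gq/11 alphas, both G12/13 alphas and Gnas had positive log2 fold changes, of 0.12 to 0.25. So had 23 of all 36 members. Of the R4 RGS members 4 of 5 had negative ones, and none of these passed the test. Signs of the other classes are not given here. Gna14, a Gq/11 alpha with 106 reads in all, went opposite ways in the 2 genotypes. With the Foxp2 virus against the control virus it averaged 2.82 against 1.14 CPM in BACHD mice and 1.75 against 3.03 CPM in control mice.

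Marker lists of cell types differed in direction with the virus. All 14 projection neuron markers had negative log2 fold changes over both genotypes, 1 of them called, with a median of -0.38; their summed level was 4874 to 6409.5 CPM in BACHD+Foxp2 mice, against 5259.7 to 8016 CPM in BACHD+Con mice, and 4303 to 5332 CPM in Con+Foxp2 mice, against 4671 to 8519 CPM in Con+Con mice. Of 9 tested cholinergic interneuron markers 8 were lower and 3 called lower (median -0.95). All 12 microglial markers were higher with 1 called (median 0.34), 9 of 12 astrocyte markers were higher with 3 called (median 0.24), and 9 of 12 cortical markers were higher (median 0.58) with 1 called lower. All 10 choroid plexus and ependyma markers were lower (median -0.67), with summed levels of 185 to 5041 CPM in BACHD+Foxp2 mice, against 125 to 10739.7 CPM in BACHD+Con mice, and of 239 to 3064 CPM in Con+Foxp2 mice, against 257 to 7555 CPM in Con+Con mice. Of the oligodendrocyte markers 10 of 12 were lower (median -0.17), of the GABAergic interneuron markers 7 of 11 (median -0.23) and of the mural markers 7 of 9 (median -0.15), while 7 of 12 endothelial markers were higher (median 0.04); none of these 5 lists had a called marker. Every marker of these lists had reads. With the cortical sum as a covariate, an alternative added after seeing the data, 0 members were called in any of the 7 comparisons. Results of the comparisons with the sum of another list as a covariate are not given here.

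**Figure D3:**
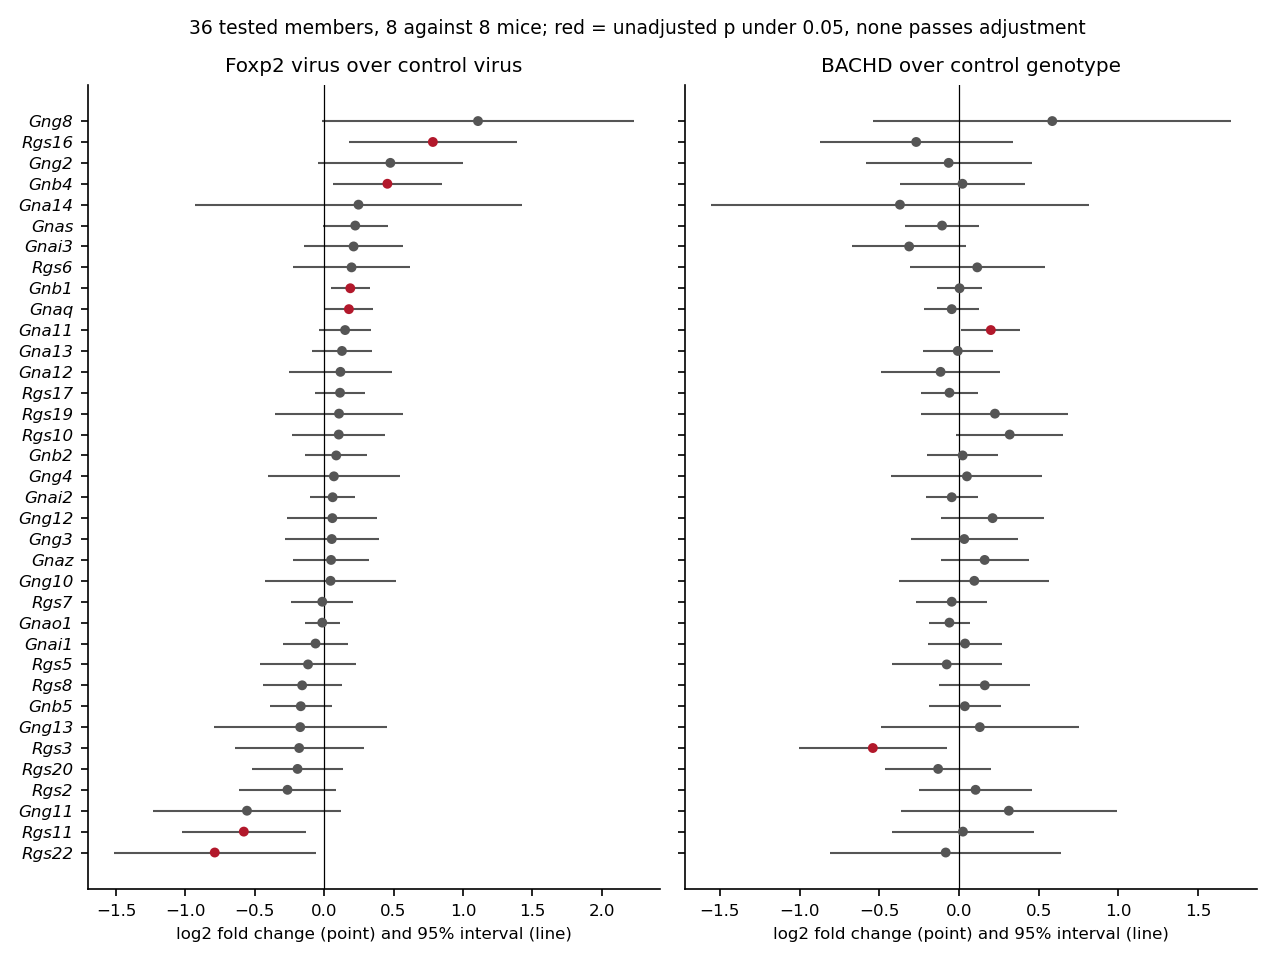
Log2 fold change (horizontal axis) of the 36 tested members with 95% intervals, for Foxp2 virus over control virus (left) and BACHD over control genotype (right), 8 against 8 mice each, ordered by the left panel; red points have an unadjusted p under 0.05. Intervals of 24 members on the left and 25 on the right lie within 1.5-fold of no change, and none of the red points passed adjustment.

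No member was called between genotypes either. With the control virus (BACHD+Con against Con+Con) edgeR, DESeq2 and limma voom each called 0 of 36 members, where edgeR called 0.0147% of all genes (2 genes); 1 member had an unadjusted p under 0.05, 2.78% against 3.44% of all genes. The median log2 fold change of the members was -0.02, against 0.00 for all genes. Rgs3 was at 7.90, 10.2, 14.4 and 10.4 CPM in BACHD+Con mice, against 21.5, 9.97, 19.6 and 22.7 CPM in Con+Con mice. For this R4 regulator 3 Con+Con mice were above all BACHD+Con mice and the other lay among them; the log2 fold change was -0.78 ± 0.32 (adjusted p 1.000, edgeR). Rgs19 was at 18.6, 14.9, 19.5 and 15.03 CPM in BACHD+Con mice, against 9.74, 11.6, 8.04 and 14.5 CPM in Con+Con mice. The BACHD+Con mice were all above the Con+Con mice, as for 2.43% of all genes in either direction, but by a narrow step, and the log2 fold change was 0.63 ± 0.32 (adjusted p 1.000, edgeR). The Con+Con mice are the same as in the virus comparison in which Rgs19 did not overlap. Rgs10 was at 25.1, 41.9, 38.6 and 30.1 CPM in BACHD+Con mice, against 19.5, 34.4, 20.6 and 23.4 CPM in Con+Con mice. Its groups overlapped, with a log2 fold change of 0.47 ± 0.23 (adjusted p 1.000, edgeR). With the Foxp2 virus Rgs10 was at 28.5, 34.7, 34.8 and 33.2 CPM in BACHD+Foxp2 mice, against 32.2, 38.6, 25.9 and 20.7 CPM in Con+Foxp2 mice, which also overlapped.

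With the Foxp2 virus (BACHD+Foxp2 against Con+Foxp2) 0 of 36 members were called by edgeR, DESeq2 or limma voom, where edgeR called 0.059% of all genes (8 genes), and 1 member had an unadjusted p under 0.05, 2.78% against 4.18% of all genes. The members' median log2 fold change was 0.07 against 0.01 for all genes. That member was Gnai3. It was at 28.2, 16.7, 27.2 and 34.8 CPM in BACHD+Foxp2 mice, against 41.5, 33.4, 56.7 and 45.05 CPM in Con+Foxp2 mice. Only the highest BACHD+Foxp2 mouse reached the lowest Con+Foxp2 mouse, and the log2 fold change was -0.72 ± 0.24 (adjusted p 0.998, edgeR). Foxp2 itself was lower in BACHD+Foxp2 than in Con+Foxp2 mice (log2 fold change -1.33 ± 0.16, adjusted p 9.64e-05, edgeR), so these groups differ in genotype and in the level of the delivered gene, and the 2 cannot be told apart here. Gng10 was at 11.3, 32.7, 23.7 and 15.6 CPM in BACHD+Foxp2 mice, against 16.1, 20.6, 10.6 and 11.5 CPM in Con+Foxp2 mice. Gng12 was at 71.3, 38.9, 62.3 and 33.8 CPM in BACHD+Foxp2 mice, against 35.4, 42.9, 42.4 and 44.5 CPM in Con+Foxp2 mice. Both gamma subunits overlapped between the groups, with log2 fold changes of 0.51 ± 0.32 and 0.32 ± 0.22 (adjusted p 0.998 for both, edgeR). With the control virus Gng12 was at 63.2, 38.98, 38.3 and 43.2 CPM in BACHD+Con mice, against 41.6, 50.8, 44.4 and 33.9 CPM in Con+Con mice, and these groups overlapped as well.

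Over both viruses (8 BACHD against 8 control mice) edgeR, DESeq2 and limma voom called 0 of 36 members and edgeR 0.0369% of all genes (5 genes); 2 members, Rgs3 and Gna11, had an unadjusted p under 0.05, 5.56% against 4.05% of all genes. The median log2 fold change of the 36 members was 0.02 against 0.00 for all genes. Foxp2 was lower in BACHD mice in this comparison too (log2 fold change -0.66 ± 0.11, adjusted p 0.0192, edgeR). Genotype and the level of the delivered gene are thus mixed here as well. Gna11 was at 106, 85.4, 109.8 and 105 CPM in BACHD+Foxp2 mice and 98.3, 85.5, 83.9 and 94.8 CPM in BACHD+Con mice. Con+Foxp2 mice had 89.2, 82.5, 89.2 and 89.5 CPM and Con+Con mice 81.1, 84.9, 66.2 and 86.7 CPM. BACHD and control mice overlapped, and the log2 fold change of BACHD over control was 0.20 ± 0.09 (adjusted p 0.999, edgeR). Rgs3 was at 12.1, 6.55, 12.04 and 14.03 CPM in BACHD+Foxp2 mice, against 9.98, 18.00, 13.9 and 13.4 CPM in Con+Foxp2 mice. Together with the control-virus mice the log2 fold change of Rgs3 was -0.54 ± 0.23 (adjusted p 0.999, edgeR).

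Whether the difference with the virus itself differed between the 2 genotypes was tested by the interaction of genotype and virus. Foxp2 averaged 1595 CPM in BACHD+Foxp2 mice and 4015 CPM in Con+Foxp2 mice. Genotype and the level of the delivered gene therefore cannot be told apart in this test. edgeR called 0 of 36 members and 0% of all genes (0 of 13563), with 1 member and 3.8% of all genes at an unadjusted p under 0.05; DESeq2 and limma voom also called 0 members. The median over the members was 0.08, against 0.01 for all genes. The member with the lowest p was Gnai3, whose log2 fold change was -0.20 ± 0.25 with the virus in BACHD mice and 0.62 ± 0.24 in control mice. The difference of these values was -0.82 ± 0.35 (adjusted p 1.000, edgeR). Gnai3 was at 28.2, 16.7, 27.2 and 34.8 CPM in BACHD+Foxp2 mice, against 21.3, 45.3, 27.5 and 28.5 CPM in BACHD+Con mice. In BACHD mice the 2 virus groups overlapped. Differences of Rgs19 (-0.82 ± 0.45), Gng10 (0.83 ± 0.45) and Gna14 (2.04 ± 1.15, 106 reads in all) had the next p-values, all with an adjusted p of 1.000 by edgeR. Rgs19 was at 15.4, 23.2, 6.88 and 9.57 CPM in BACHD+Foxp2 mice, which lay both above and below the BACHD+Con mice. Gng10 was at 10.997, 17.5, 16.5 and 15.8 CPM in BACHD+Con mice and 14.5, 27.99, 15.1 and 18.2 CPM in Con+Con mice, within the span of the mice with the Foxp2 virus. Gna14 was at 5.85, 0.982, 4.13 and 0.319 CPM in BACHD+Foxp2 mice and 0.687, 0.991, 1.34 and 1.54 CPM in BACHD+Con mice. Among control mice, values were 2.90, 0.654, 0.994 and 2.46 CPM with the Foxp2 virus and 2.36, 5.15, 3.86 and 0.744 CPM with the control virus. At such levels, a few reads a library, the Gna14 values of all 4 groups overlapped.

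The intervals bound the size of the differences. The 95% interval of the fold change lay within 1.5-fold of no change for 16 of 36 members in each of the 4 comparisons of 4 against 4 mice, for 24 in the comparison of viruses over both genotypes and for 25 in that of genotypes over both viruses. It lay within 2-fold for 24 to 28 members with 4 against 4 mice, and for 30 and 33 members with 8 against 8 mice. In the authors' deposited table for Con+Foxp2 over Con+Con, 41 members were listed and the lowest adjusted p was 0.280, for Gnai3 and Rgs11 alike. In the authors' deposited table for BACHD+Foxp2 over BACHD+Con it was 0.397, for Rgs16, and 0 members were called in any of the 3 tables the authors deposited.

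Between mice of the same group, several members moved with the markers of cortical and projection neurons. This relation was looked at after the data were seen. Each gene's log2 level was fitted on the log2 sum of the 12 cortical markers with a mean per group, so that the slope is the log2 change per doubling of the cortical sum and does not use differences between groups. edgeR called 7 of 36 members (19.4%), 5 higher and 2 lower, where it called 6.23% of all genes (4.42% higher and 1.81% lower). The median slope was -0.00 over the members and -0.02 over all genes. Gng2 rose by 0.66 ± 0.10 per doubling (SE, adjusted p 2.81e-05, edgeR), Gng3 by 0.37 ± 0.07 (adjusted p 0.00132) and Gnas by 0.25 ± 0.05 (adjusted p 0.00129). Gnai1 and Gnaq rose less, by 0.20 ± 0.06 and 0.15 ± 0.05 (adjusted p 0.0476 and 0.0406). Rgs2 and Rgs8, both R4 regulators, had negative slopes of -0.38 ± 0.08 and -0.27 ± 0.07 per doubling (adjusted p 0.00263 and 0.0196).

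Gng2 was at 117, 135, 107 and 64.4 CPM in BACHD+Foxp2 mice and 83.5, 52.5, 19.1 and 116 CPM in BACHD+Con mice. In control mice it was at 113, 76.6, 117 and 86.5 CPM with the Foxp2 virus and 84.1, 59.2, 132 and 42.4 CPM with the control virus. The lowest value was that of BACHD+Con mouse 3 and the next that of Con+Con mouse 4, which also had the lowest and third-lowest cortical sums, 321 and 443 CPM. Con+Con mouse 3, with the highest cortical sum of 1961 CPM, had the second-highest Gng2 value. Rgs2 was at 82.3, 70.04, 91.9 and 104 CPM in BACHD+Foxp2 mice and 72.2, 109, 145 and 99.8 CPM in BACHD+Con mice. The Con+Foxp2 mice had 101, 91.95, 67.6 and 69.3 CPM and the Con+Con mice 75.8, 131, 52.1 and 131 CPM. Here the order ran the other way: BACHD+Con mouse 3 was highest, Con+Con mice 2 and 4 followed, and Con+Con mouse 3 was lowest.

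Gng3 was at 69.5, 117, 82.9 and 66.02 CPM in BACHD+Foxp2 mice and 97.9, 63.1, 66.8 and 118 CPM in BACHD+Con mice. Values in Con+Foxp2 mice were 105, 77.2, 87.5 and 81.1 CPM, against 57.5, 61.1, 121 and 77.01 CPM in Con+Con mice. The highest Gng3 value was again that of Con+Con mouse 3. Gnai1 was at 127, 109.6, 156 and 101 CPM in BACHD+Foxp2 mice and 133, 102, 95.03 and 146 CPM in BACHD+Con mice. Con+Foxp2 mice had 112, 118, 116 and 97.7 CPM and Con+Con mice 138, 105, 149.8 and 108 CPM. For this inhibitory alpha BACHD+Foxp2 mouse 3 and Con+Con mouse 3 were highest and BACHD+Con mouse 3 was lowest. Gnas was at 536, 717, 616 and 573 CPM in BACHD+Foxp2 mice and 606, 484, 377 and 664 CPM in BACHD+Con mice. Among control mice, values were 717, 662, 656 and 643 CPM with the Foxp2 virus and 671, 417, 689 and 473 CPM with the control virus. BACHD+Con mice 2 and 3 and Con+Con mice 2 and 4 were below all other mice for this stimulatory alpha subunit. Rgs8 was at 147, 122, 127 and 229.9 CPM in BACHD+Foxp2 mice and 157, 177, 202 and 147 CPM in BACHD+Con mice. In control mice it was at 121, 140.4, 122 and 163 CPM with the Foxp2 virus and 136, 201, 105 and 185 CPM with the control virus. Con+Con mouse 3 was lowest for Rgs8, and BACHD+Foxp2 mouse 4 was highest, with a cortical sum of 917 CPM.

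**Figure D4:**
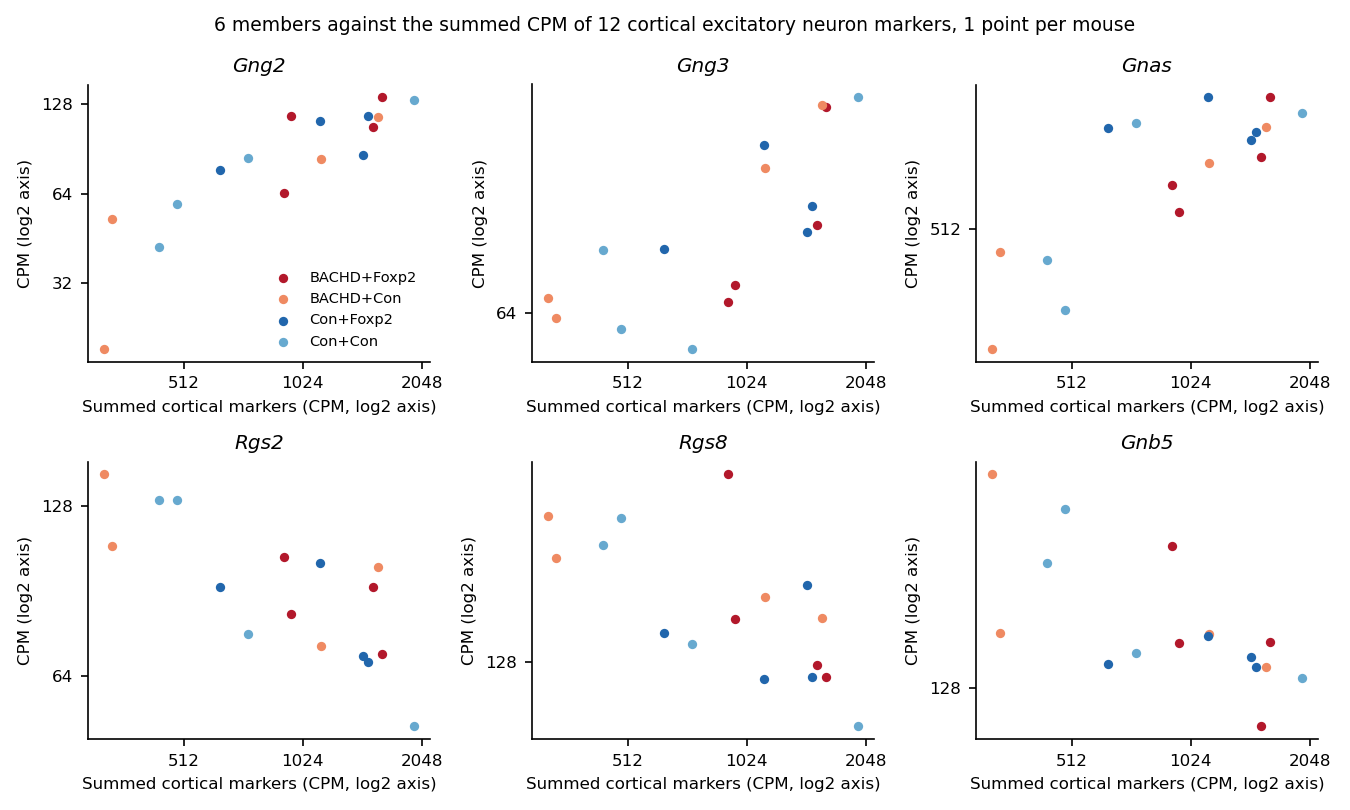
CPM of 6 members (vertical axes, log2) against the summed CPM of 12 cortical excitatory neuron markers (horizontal axes, log2), 1 point per mouse coloured by group. Gng2, Gng3 and Gnas are high where the cortical sum is high, and Rgs2 and Rgs8 are low there; BACHD+Con mouse 3, with a cortical sum of 321 CPM, had 19.1 CPM of Gng2 and 145 CPM of Rgs2.

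The same fit on the log2 sum of the 14 projection neuron markers called 6 of 36 members (16.7%), 3 higher and 3 lower, and 3.83% of all genes (1.43% higher and 2.4% lower). Rgs2 rose by 1.31 ± 0.20 per doubling (adjusted p 1.81e-04, edgeR), Rgs8 by 0.93 ± 0.19 (adjusted p 0.00319) and Gnb5 by 0.67 ± 0.16 (adjusted p 0.0108). Gng2 had a slope of -1.89 ± 0.32 (adjusted p 5.49e-04), Gnas of -0.80 ± 0.14 (adjusted p 0.00108) and Gnai1 of -0.65 ± 0.18 (adjusted p 0.0396). Gnb5 was at 142, 142, 117 and 178 CPM in BACHD+Foxp2 mice and 145, 146, 211 and 135 CPM in BACHD+Con mice. The Con+Foxp2 mice had 145, 135, 135 and 138 CPM and the Con+Con mice 139, 195, 131 and 171 CPM. BACHD+Con mouse 3 and Con+Con mice 2 and 4, which had the 3 highest projection neuron sums, also had 3 of the 4 highest Gnb5 values. Gnao1, the most abundant alpha member, had slopes of 0.01 ± 0.04 on the cortical and 0.11 ± 0.12 on the projection neuron sum, and Gnb1 of 0.12 ± 0.04 and -0.32 ± 0.12, of which none was called. Both marker sums come from the same libraries as the members and ran against each other across mice, so the 2 fits are not independent, and neither says which cells hold the members' RNA.

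Some slopes lost their call with fewer libraries. Without Con+Con mouse 3 the cortical fit called 3 members (Gng2, Gnas and Gng3), and without the 3 libraries lowest in cortical markers it called 3 (Gng2, Gng3 and Rgs2) and the projection neuron fit 3 (Gng2, Rgs2 and Rgs8). Gng2 and Gng3 on the cortical sum, and Gng2, Rgs2 and Rgs8 on the projection neuron sum, were called under all 21 alternatives tried, including each library left out in turn, while Gnai1 and Gnaq lost their cortical call in 13 and 11 of them. The slopes themselves kept their sign: over these alternatives the cortical slope was 0.52 to 0.80 for Gng2, 0.32 to 0.46 for Gng3, 0.21 to 0.29 for Gnas, 0.14 to 0.24 for Gnai1, 0.14 to 0.17 for Gnaq, -0.50 to -0.30 for Rgs2 and -0.38 to -0.22 for Rgs8. On the projection neuron sum it was 1.16 to 1.44 for Rgs2, 0.79 to 1.07 for Rgs8, 0.56 to 0.76 for Gnb5, -0.87 to -0.67 for Gnas, -0.71 to -0.52 for Gnai1 and -2.29 to -1.25 for Gng2, whose value nearest 0 came without the 3 libraries lowest in cortical markers.

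**Figure D5:**
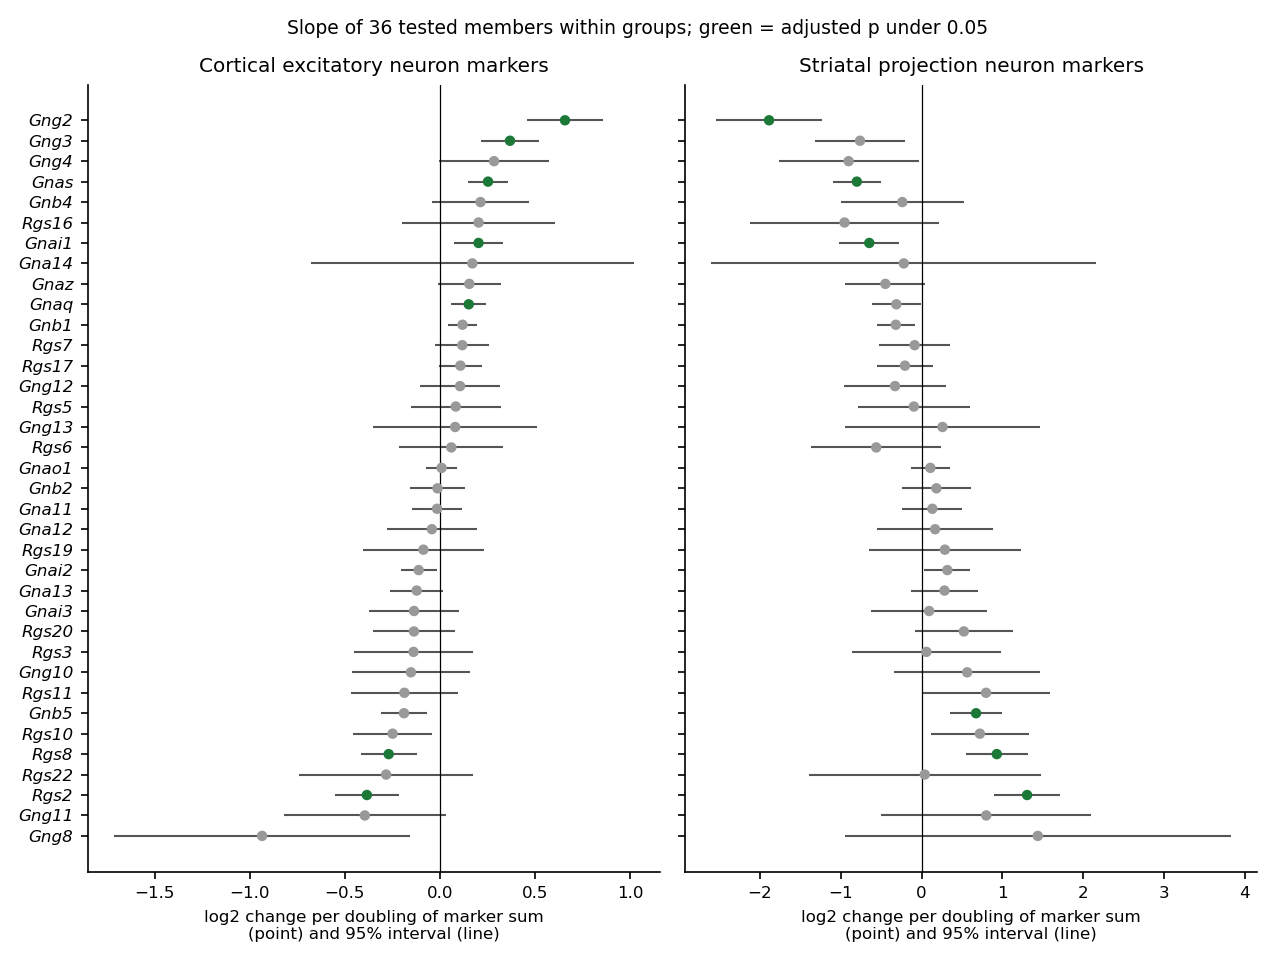
Slope of each of the 36 tested members within groups (horizontal axis, log2 change per doubling of the marker sum, with 95% interval) on cortical markers (left) and projection neuron markers (right), ordered by the left panel; green points have an adjusted p under 0.05. Gng2 lies at 0.66 on the left and -1.89 on the right, and Rgs2 at -0.38 and 1.31.

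The start-site regions of Gng2, Rgs2 and Rgs8 are given as examples because these members kept their call on projection neuron markers under the 21 alternatives, in opposite directions. They are the 250 bases before a RefSeq start on GRCm38.p6, from chr14:19976694-19976943 on the minus strand for Gng2 (gene at chr14:19872559-19977627), chr1:144004150-144004399 on the minus strand for Rgs2 (gene at chr1:143999338-144004161) and chr1:153652787-153653036 on the plus strand for the first of 3 listed Rgs8 starts (gene at chr1:153653025-153700323, GENCODE M21). Each is written 5' to 3' along the gene, and capitals mark the short core of the cAMP response element, TGACG or its reverse complement CGTCA. The other Rgs8 windows, chr1:153665024-153665273 and chr1:153665423-153665672, hold no such core and are not printed.
Gng2: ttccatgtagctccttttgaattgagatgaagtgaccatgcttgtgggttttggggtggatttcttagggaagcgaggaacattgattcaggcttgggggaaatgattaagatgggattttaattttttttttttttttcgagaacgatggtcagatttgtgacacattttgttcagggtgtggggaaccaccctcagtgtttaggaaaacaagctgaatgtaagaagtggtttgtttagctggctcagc
Rgs2: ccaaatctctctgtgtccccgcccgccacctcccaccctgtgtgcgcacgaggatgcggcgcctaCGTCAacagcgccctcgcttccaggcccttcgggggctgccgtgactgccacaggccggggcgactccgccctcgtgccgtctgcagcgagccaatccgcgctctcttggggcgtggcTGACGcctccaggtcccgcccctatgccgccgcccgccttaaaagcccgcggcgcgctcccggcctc
Rgs8: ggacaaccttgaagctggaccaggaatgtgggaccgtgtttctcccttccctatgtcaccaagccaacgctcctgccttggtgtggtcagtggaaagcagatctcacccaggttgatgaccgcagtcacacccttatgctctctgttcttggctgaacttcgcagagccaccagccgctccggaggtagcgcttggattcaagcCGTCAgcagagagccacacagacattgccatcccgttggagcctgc
The Rgs2 window has a base composition of 72.4% G+C with 30 CpG, the Rgs8 window 57.2% with 9 and the Gng2 window 41.2% with 3. The Gng2 window lies wholly inside the GENCODE gene, downstream of its 5' end, while the Rgs2 and Rgs8 windows lie at their gene starts. These compositions therefore come from unlike positions. The short core, searched on both strands, was in 8 of the 43 windows of the 32 members matched in the RefSeq table used and in 17.8% of all 32851 windows of this length. The forkhead motif TGTTTAC was in 0 of the 43 member windows and in 3.17% of all windows, and the E-box CAGATG in 5 of 43 and 14.4%. A match or its absence describes only these letters in these windows.

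Of the other genes of the pathway, a list of effectors, remaining alpha and gamma subunits and regulators or partners of RGS proteins, 40 were tested. Over both genotypes 2 fell with the Foxp2 virus and 0 rose, 5% of the list against 1.05% of all genes, and 0 were called in the other 6 comparisons by edgeR. Arhgef1 was at 47.6, 36.7, 59.5 and 57.7 CPM in BACHD+Foxp2 mice and 77.3, 78.3, 101 and 73.2 CPM in BACHD+Con mice. Values in Con+Foxp2 mice were 38.3, 46.5, 43.8 and 45.05 CPM, against 58.1, 54.05, 76.2 and 47.99 CPM in Con+Con mice. This guanine nucleotide exchange factor is activated by G12/13 alphas and itself carries an RGS domain. Its level was lower in all Foxp2-virus mice than in all control-virus mice of the same genotype. Groups did not overlap, in either direction, for 4.14% of all genes in BACHD mice and 5.01% in control mice. The log2 fold change of Arhgef1 over both genotypes was -0.58 ± 0.13 (adjusted p 0.0175, edgeR). The call was lost without BACHD+Con mouse 3 and without the 3 libraries lowest in cortical markers (adjusted p up to 0.101), while the log2 fold change stayed at -0.62 to -0.50 over all 24 alternatives.

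Gpr158 was at 270.3, 255, 239.8 and 283 CPM in BACHD+Foxp2 mice and 304, 322, 352 and 316 CPM in BACHD+Con mice. Con+Foxp2 mice had 266, 229.7, 205 and 216 CPM and Con+Con mice 245, 336, 281 and 319 CPM. All BACHD+Foxp2 mice were below all BACHD+Con mice, while in 4.14% of all genes these groups did not overlap in either direction. In control mice 1 Con+Con mouse lay among the Con+Foxp2 mice. The log2 fold change of Gpr158, a receptor that binds Rgs7 and its Gnb5 partner, was -0.33 ± 0.08 over both genotypes (adjusted p 0.0340, edgeR). Of 24 alternatives 13 ended the call, with log2 fold changes of -0.38 to -0.27 over all 24. Rgs7 itself had a log2 fold change of -0.01 ± 0.11 and Gnb5 of -0.17 ± 0.11 in the same comparison, with adjusted p-values of 0.981 and 0.622. Adcy5, the main adenylyl cyclase of striatal projection neurons and itself among the 14 projection neuron markers, had a log2 fold change of -0.47 ± 0.13 (adjusted p 0.0895, edgeR). It was called under 5 of 24 alternatives, among them DESeq2 and no filter on low counts, and its log2 fold change was -0.54 to -0.21 over the 24, nearest 0 with the cortical sum as a covariate.

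In the other comparisons the pathway genes with the 3 lowest p-values were not called. Gpr158, Adcy5 and Plcb1, a phospholipase C beta that Gq alphas activate, had log2 fold changes of -0.37 ± 0.11, -0.57 ± 0.18 and -0.28 ± 0.11 with the Foxp2 virus in control mice (adjusted p 0.287, 0.335 and 0.525, edgeR). In BACHD mice those of Arhgef1, Gpr158 and Gpsm1, which binds inhibitory alphas in their GDP form, were -0.71 ± 0.18, -0.30 ± 0.11 and -0.43 ± 0.17 (adjusted p 0.128, 0.462 and 0.546, edgeR). For BACHD+Con over Con+Con those of Gpsm1, Arhgef1 and Akap10, an anchor of protein kinase A, were 0.50 ± 0.17, 0.48 ± 0.17 and -0.29 ± 0.17 (adjusted p 1.000 for each, edgeR). Adcy8, a calcium-stimulated adenylyl cyclase, was at -0.99 ± 0.27 for BACHD+Foxp2 over Con+Foxp2 (adjusted p 0.797), beside Arhgef11, another exchange factor with an RGS domain, at 0.44 ± 0.16 and Plcb4, a relative of Plcb1, at -0.49 ± 0.22 (adjusted p 0.998 for both, edgeR). Over both viruses the log2 fold changes of BACHD over control were -0.65 ± 0.19 for Adcy8, -0.43 ± 0.15 for Plcb4 and 0.35 ± 0.13 for Arhgef1 (adjusted p 0.999 for each). The differences between genotypes in the log2 fold change with the virus were -0.80 ± 0.25 for Gpsm1, 0.61 ± 0.23 for Arhgef11 and -0.67 ± 0.38 for Adcy8 (adjusted p 1.000 for each, edgeR).

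Within groups, 12 of the 40 pathway genes had a called slope on the cortical sum (9 higher, 3 lower), 30% against 6.23% of all genes, and 9 on the projection neuron sum (3 higher, 6 lower), 22.5% against 3.83%. Of the 3 higher on the projection neuron sum 1 was Adcy5, whose own reads are part of that sum. Adcy1, Adcy2 and the channel subunits Kcnj3 and Kcnj9, targets of beta-gamma, rose with the cortical sum by 0.65 ± 0.05, 0.41 ± 0.05, 0.69 ± 0.08 and 0.60 ± 0.08 per doubling (adjusted p 7.41e-11, 3.17e-06, 1.12e-06 and 5.62e-06, edgeR). Gnal had a slope of -0.34 ± 0.05 on the cortical sum (adjusted p 3.54e-05) and of 1.06 ± 0.13 on the projection neuron sum (adjusted p 1.48e-05, edgeR). Gnas and Gnal, both stimulatory alpha subunits, thus had slopes of opposite sign on each sum.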

How the data were processed

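Striatal RNA-seq of 16 mice, 4 in each of 4 groups, was analysed from read counts per gene as the authors deposited them, whole numbers without normalization. Per the submitters' processing notes, the build was mm10 and the tools included STAR 2.4.0, HTSeq and DESeq2; no strand setting is stated there. The authors deposited 3 tables of their own comparisons with log2 fold changes and adjusted p-values, read here only to be set beside the values computed from the counts. Lines of unassigned reads were left out, and reads in genes made up 22.5% to 24.7% of the listed reads.

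After TMM scaling and filterByExpr, 13563 genes entered the quasi-likelihood test of edgeR 4.0.16 (R 4.3.3). Group means of the 16 libraries were estimated in 1 model with 12 residual degrees of freedom, from which 7 two-sided contrasts were taken. A gene was called where its Benjamini-Hochberg adjusted p, over the whole tested table, was below 0.05. The scripts were tested on simulated counts. Reads carry no molecular identifiers, so floors cover counting error only. The labels count the samples as mice, and p-values measure the spread between these mice. Levels per kilobase used the union of GENCODE M21 exons (GRCm38, which is mm10). Promoters are RefSeq windows on GRCm38.p6.

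The members, the gene lists and the tests were chosen with earlier results of these data known. Values per mouse are given for members among the 4 lowest p-values of a comparison, the 2 highest per length of their role class, and those with a called slope. Alternatives were RLE size factors, library totals, no filter, DESeq2 1.42.0, limma voom (limma 3.58.1), only the groups compared, the replicate number as a block, and leaving out single libraries or the 3 lowest in cortical markers; the slopes on marker sums and the cortical covariate were added after seeing the data.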

Additional observations from a re-analysis of the deposited data

Results flagged for a closer look

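In 7 of 108 member and group combinations a single mouse lay far from the other 3 of its group by Dixon's criterion, which chance meets in about 1 in 20 groups. Gnb4 was at 8.92 CPM in BACHD+Con mouse 2, where the other 3 mice were at 22.8 to 25.1 CPM, and at 17.1 CPM in Con+Con mouse 4, where the others were at 23.9 to 24.8 CPM. Gnb5 was at 210.9 CPM in BACHD+Con mouse 3, the mouse with the lowest sum of cortical markers, against 134.5 to 145.7 CPM in the others. Gnaq was at 196.7 CPM in Con+Con mouse 3, the mouse with the highest sum of cortical markers, against 164.1 to 167.3 CPM. Rgs16 was at 25.5 CPM in Con+Foxp2 mouse 2, against 8.62 to 11.2 CPM in the other 3. Gna11 was at 82.5 CPM in Con+Foxp2 mouse 2, against 89.2 to 89.5 CPM, and Rgs22 at 2.19 CPM in BACHD+Foxp2 mouse 1, against 7.20 to 7.97 CPM.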

How the results depend on the processing

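No member was called in any of the 7 comparisons under RLE size factors, library totals, no filter on low counts, DESeq2, limma voom, the groups of a comparison alone, the replicate block, the cortical covariate, or any of the 16 fits that left out 1 library (0 members in each). No named value changed sign past its threshold. Members called on the cortical slope ranged from 3 to 8 when 1 library was left out and on the projection neuron slope from 4 to 7; leaving out the 3 libraries with the lowest cortical sums gave 3 and 3. The 2 pathway genes called lower with the Foxp2 virus over both genotypes ranged from 0 to 3 when 1 library was left out, and were 1 with the cortical covariate and 0 without the 3 lowest libraries; the cause was not tested. Correlations of same-numbered libraries ran from -0.16 to 0.10, with 1 of 24 over 0.1. Those of libraries with different numbers ran from -0.18 to 0.22, with 13 of 72 over 0.1. Same-numbered libraries were thus no more alike, but this cannot show what the numbers stand for, which the labels do not state. With the replicate block 0 members were called in the 7 comparisons, 5 on the cortical and 5 on the projection neuron slope, and 1 pathway gene. Over all genes, DESeq2 called 79 genes for the virus in control mice, 62 in BACHD mice, 234 over both genotypes and 15 for the genotype under the Foxp2 virus, against 31, 33, 143 and 8 by edgeR; leaving out the 3 libraries with the lowest cortical sums, edgeR called 61 for the virus over both genotypes. Depth limits the lowest members most: Gna14 and Gng8 had 106 and 167 reads over all 16 libraries.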
